A study of Homo sapiens with 18 samples.

Results

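The genes described are the nuclear-encoded subunits of the mitochondrial respiratory chain and ATP synthase in SH-SY5Y, a human neuroblastoma cell line that can be turned into neuron-like cells. They were taken from the gene table by symbol: names beginning with NDUFA, NDUFB, NDUFC, NDUFS or NDUFV and a number (complex I), SDHA to SDHD (complex II), UQCR (complex III), COX4 to COX8 followed by a letter (complex IV) and ATP5 (complex V). Of 26372 symbols, 93 matched, and 81 of these had a mean of at least 1 FPKM (fragments per kilobase of transcript, scaled to the mapped fragments of the library) over all libraries and are the members. Of the 81 members, 76 encode subunits: 36 of complex I, 4 of complex II, 8 of complex III, 13 of complex IV and 15 of complex V. The other 5 are the antisense RNA NDUFB2-AS1, the UQCRH retrocopy UQCRHL, the pseudogene UQCRBP1, and ATP5S and ATP5SL, which carry the ATP5 name but encode no subunit. Just outside the limit lay COX4I2 with a mean of 0.971 FPKM, and just inside lay NDUFB2-AS1 with 1.46 FPKM. Symbols are those of the table, in which ATP synthase genes carry their older names (ATP5E is now ATP5F1E, ATP5G2 is now ATP5MC2).

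RNA-seq was done on cells that had received ZNHIT3 from the lentiviral plasmid FUGW as the wild-type sequence (WT), with the substitution C14R, or with a deletion. Libraries were made at day 0 and at day 18 of a differentiation in serum-free neurobasal medium with B27, BDNF, KCl, dibutyryl cyclic AMP and all-trans retinoic acid, all added after infection, with 3 libraries in each of the 6 groups. Every group shares the cell line, the virus and the endogenous ZNHIT3 gene, so the variants were measured on top of whatever the cells express themselves, and no group without virus was used. The treatment labels give the deleted positions differently in each of the 3 deletion replicates, and the titles call them depleted; they were analysed as one group. The labels do not say that replicates were separate cultures, so p-values measure the spread between these libraries, which may be technical.

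ZNHIT3 itself, the delivered gene, was read at 542, 541 and 531 FPKM in the 3 WT libraries of day 0, at 419, 432 and 421 with C14R and at 306, 310.1 and 292 with the deletion. At day 18 it was read at 1193, 1164 and 1103 FPKM in WT, 599.7, 756 and 604 with C14R and 298, 313 and 294 with the deletion. The groups of each day did not overlap, and WT was the highest at both days, so the amount of ZNHIT3 RNA differed between the constructs together with its sequence. These values do not separate delivered from endogenous transcripts.

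The respiratory chain passes electrons from NADH (complex I) and succinate (complex II) through complex III to oxygen (complex IV), pumping protons across the inner mitochondrial membrane, and complex V uses the returning protons to make ATP. Nearly all subunits are encoded in the nucleus, while a small core is encoded in mitochondrial DNA and was not analysed here. Neurons draw most of their ATP from this pathway, and many subunit genes are known to carry promoter sites for NRF1, for the ETS factor GABP and for YY1.

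Promoters were read from RefSeq (GRCh38.p14), 250 bases before to 50 bases after each annotated start, and 64 of the 76 subunit genes had an entry. The NRF1 letters (GCGC, any base, TGCGC), searched on both strands, were found in 15 of the 64 subunit promoters (23.4%), against 6.28% of 27305 promoters in the table and 11.8% of the 10833 promoters of tested genes. The ETS letters CCGGAAG were in 19 (29.7%, against 10.7% and 19.2%), the YY1 letters AANATGGCG in 16 (25%, against 3.37% and 6.92%) and the SP1 letters GGGCGG in 39 (60.9%, against 44.6% and 69.8%). Matches of different motifs shared bases in 1 of the 64 promoters (ETS and SP1). A match is a description of the sequence and not a measured binding site. The upstream 250 bases are shown for the members with the largest fall in complexes II and III in WT, SDHD and UQCRH, for UQCR11, a complex III subunit with both NRF1 and ETS letters, and for COX6B2, a member read mainly at day 18. Capitals mark NRF1, ETS and YY1 matches, each sequence is written 5′ to 3′ along the gene's own strand and ends at the base before the annotated start. The UQCRH sequence covers chr1:46303448-46303697 (plus strand), UQCR11 chr19:1605463-1605712 (minus strand), SDHD chr11:112086623-112086872 (plus strand) and COX6B2 chr19:55354720-55354969 (minus strand).
UQCRH: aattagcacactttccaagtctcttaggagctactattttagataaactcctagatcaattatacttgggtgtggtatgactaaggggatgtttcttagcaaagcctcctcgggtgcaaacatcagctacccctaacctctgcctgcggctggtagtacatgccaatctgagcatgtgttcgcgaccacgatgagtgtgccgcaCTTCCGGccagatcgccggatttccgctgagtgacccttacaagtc
UQCR11: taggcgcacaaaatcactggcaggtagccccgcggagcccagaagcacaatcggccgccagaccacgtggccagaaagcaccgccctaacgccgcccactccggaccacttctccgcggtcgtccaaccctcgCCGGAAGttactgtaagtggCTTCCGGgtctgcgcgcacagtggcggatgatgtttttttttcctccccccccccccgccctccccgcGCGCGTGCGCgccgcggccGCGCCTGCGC
SDHD: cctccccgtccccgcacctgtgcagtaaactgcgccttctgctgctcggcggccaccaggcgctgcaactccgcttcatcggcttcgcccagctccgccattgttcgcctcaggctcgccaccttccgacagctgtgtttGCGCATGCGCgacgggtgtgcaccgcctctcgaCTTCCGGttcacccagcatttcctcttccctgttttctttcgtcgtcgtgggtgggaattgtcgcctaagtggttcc
COX6B2: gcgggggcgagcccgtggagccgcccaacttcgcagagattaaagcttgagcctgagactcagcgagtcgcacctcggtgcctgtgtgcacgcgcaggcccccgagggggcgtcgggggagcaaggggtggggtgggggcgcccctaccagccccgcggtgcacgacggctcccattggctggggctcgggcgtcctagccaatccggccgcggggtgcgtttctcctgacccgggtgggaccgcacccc
UQCRH holds 1 ETS match, UQCR11 holds 2 NRF1 and 2 ETS matches, SDHD holds 1 of each, and none of the 3 sets of letters occurs in the COX6B2 window. Among the 35 subunits with a promoter entry that were lower at day 18 in all 3 constructs, 10 held NRF1 letters, 12 ETS letters and 8 YY1 letters, against 5, 7 and 8 of the other 29.

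The libraries gave between 553539 and 2222220 summed FPKM, of which the small RNA SNORD3A alone took 1.01% to 58.6%, while the upper quartile of nonzero values lay between 16.8 and 17.4 in every library. Absolute depth is unknown, and relative depth read from the steps of low values was 59.1% to 84.6% of the deepest library at day 0 and 82.0% to 100% at day 18. Replicate 1 of C14R at day 18 stood apart, with the lowest summed FPKM. The counts and median of the members in C14R against WT at day 18 are also given without it. Results for single genes in C14R are given only with that library. Markers of sympathetic neurons and neuroblastoma were present, 16 of 17 at a mean of at least 1 FPKM, with TH under 0.5 FPKM. Their summed level was 1878 to 2003 FPKM at day 0 and 3837 to 4131 at day 18. A list of 9 markers of mesenchymal-type cells moved with day as well, from 686 to 847 FPKM at day 0 to 85.7 to 90.1 at day 18, 7 of 9 at a mean of at least 1 FPKM. Its part in the results by day was not tested. Immune markers summed to 1.10 to 7.0 FPKM and epithelial markers to 31.3 to 43.2 FPKM at day 0 and 2.78 to 5.19 at day 18, with CDH1 under 0.5 FPKM. Glial markers summed to 2.47 to 4.03 FPKM at day 0 and 5.67 to 8.01 at day 18, with GFAP, AQP4, SOX10 and MBP under 0.5 FPKM and S100B the 1 of 6 at a mean of at least 1 FPKM. The part of these lists in the results by day was not tested either. In bulk RNA, fewer cells of a type and less RNA per cell cannot be told apart.

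Most of these transcripts were lower at day 18 than at day 0 in the deposited values. In WT only 28 were lower and 23 higher once small RNA genes were left out and the libraries rescaled. In that scaling 23.5% of all genes tested were lower and 51.1% higher. With WT, 45 of 81 members were lower and 6 higher at an adjusted p under 0.05 (limma on log2(FPKM + 1), Benjamini-Hochberg over 13785 genes), where 34.0% of all genes tested were lower and 38.2% higher. With C14R, 47 were lower and 8 higher, against 35.0% and 37.9% of all genes. The deletion gave 47 lower and 7 higher, against 34.4% and 38.6%. The members' median log2 change was -0.29 in WT, -0.28 in C14R and -0.29 in the deletion, and the median over all genes was 0.03, 0.02 and 0.03. Called falls of at least 0.5 on the log2 scale were seen for 17 members in WT, 20 in C14R and 21 in the deletion, which are 21.0%, 24.7% and 25.9% of the members against 18.0%, 18.6% and 18.2% of all genes. Most of the members that were lower fell by less than that.

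**Figure D1:**
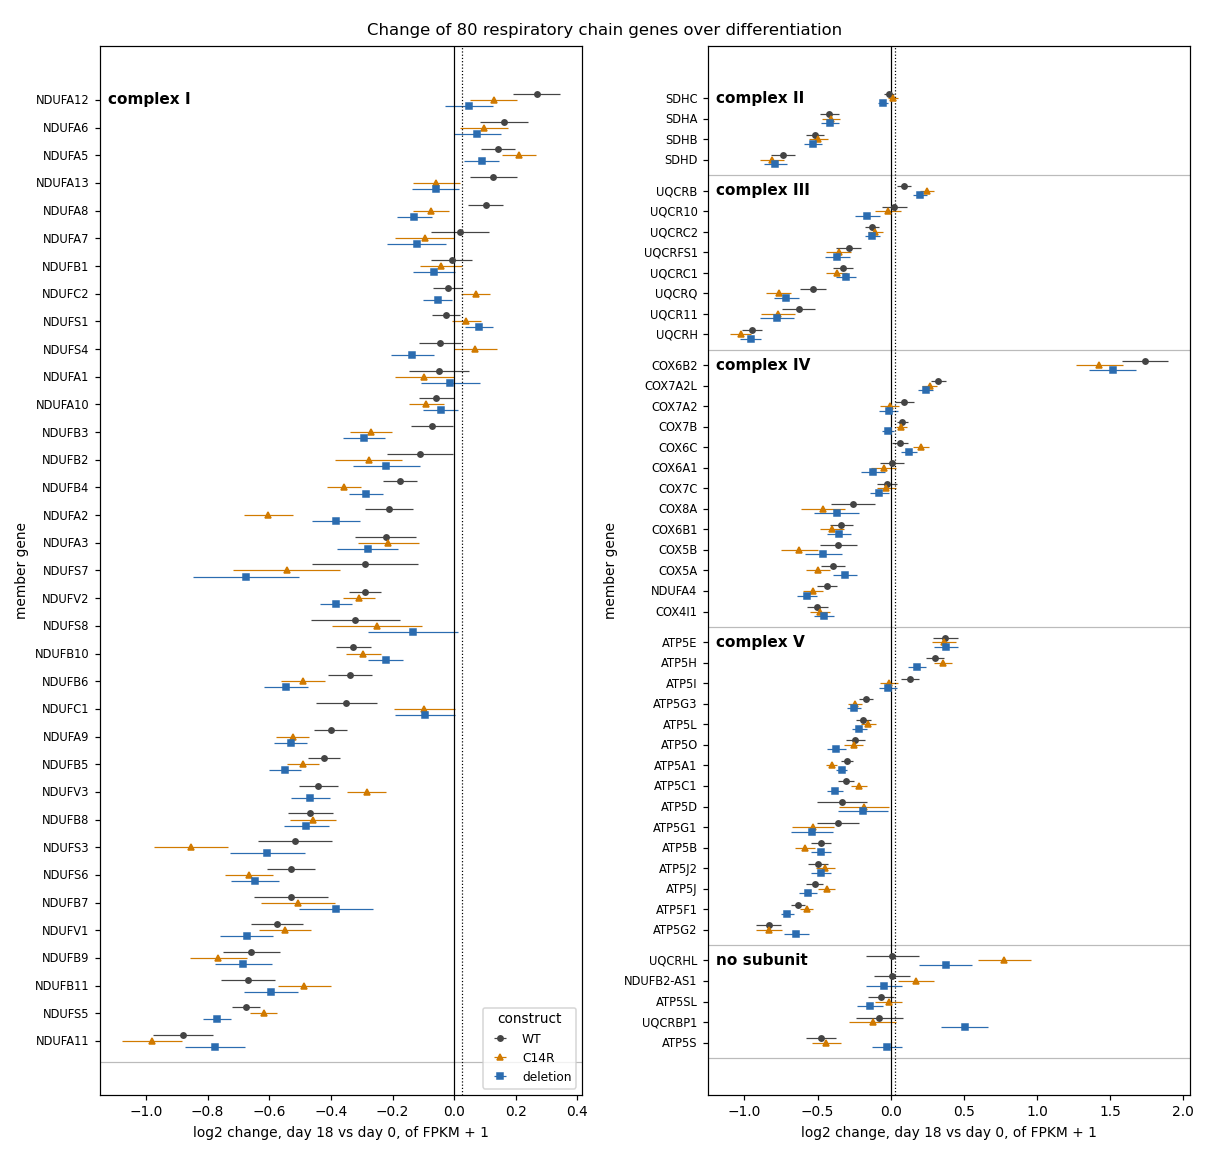
Log2 change of FPKM + 1 from day 0 to day 18 (x axis) for 80 of the 81 members (y axis), grouped by complex and ordered by the change in WT, with 1 marker per construct and bars of 1 standard error from the fit. The dotted line is the median of all genes tested in WT (0.03), and most markers of complexes I, II, III and V lie left of it, with UQCRH at -0.95 and COX6B2 at 1.74 in WT at the 2 ends.

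The 3 constructs were measured in separate libraries. They were fitted together with a common estimate of the spread for each gene, so their calls are not independent. A set of 42 members was lower in all 3 constructs and 4 were higher in all 3 (ATP5E, ATP5H, COX7A2L and COX6B2, the last of which passed the expression limit only through its day 18 libraries and so had to differ). No call was made for 21 members in any construct, 14 were called in 1 or 2, and 0 were called in opposite directions. The shares of all genes tested in these classes were not counted, so it is not known whether the members differ from them here. Across the 81 members the log2 changes of the constructs correlated at 0.92 (WT and C14R), 0.918 (WT and the deletion) and 0.934 (C14R and the deletion). These correlations are over genes, which are not independent, and no library is shared between the constructs. The same correlations over all genes tested were not computed, so they are not shown to be particular to the members. Complete separation of the 3 day 18 libraries below the 3 day 0 libraries was seen for 46 members in WT, 47 in C14R and 53 in the deletion, where 36.0%, 34.5% and 36.8% of all genes had it. Separation in the other direction was seen for 8, 8 and 9 members, against 39.7%, 37.3% and 40.9% of all genes.

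Each complex also had a typical level. On the log2(FPKM + 1) scale, the median complex IV subunit stood at 7.68 ± 0.0353 (SD, n = 3) in the day 0 WT libraries, ahead of complex V at 6.94 ± 0.0656 and complex I at 5.90 ± 0.0311. Complex III followed at 5.24 ± 0.0317 and complex II at 5.08 ± 0.0526. At day 18 the WT medians were 7.42 ± 0.216, 6.48 ± 0.103, 5.60 ± 0.116, 4.93 ± 0.137 and 4.45 ± 0.104 in the same order. The order of the complexes was thus the same at both days, and complexes II and III were the closest neighbours. For complexes I, II, III and V the 9 day 18 libraries all lay below the 9 day 0 libraries. The complex IV medians of the days overlapped, where one day 18 WT library reached 7.63 and one day 0 C14R library was at 7.42.

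**Figure D2:**
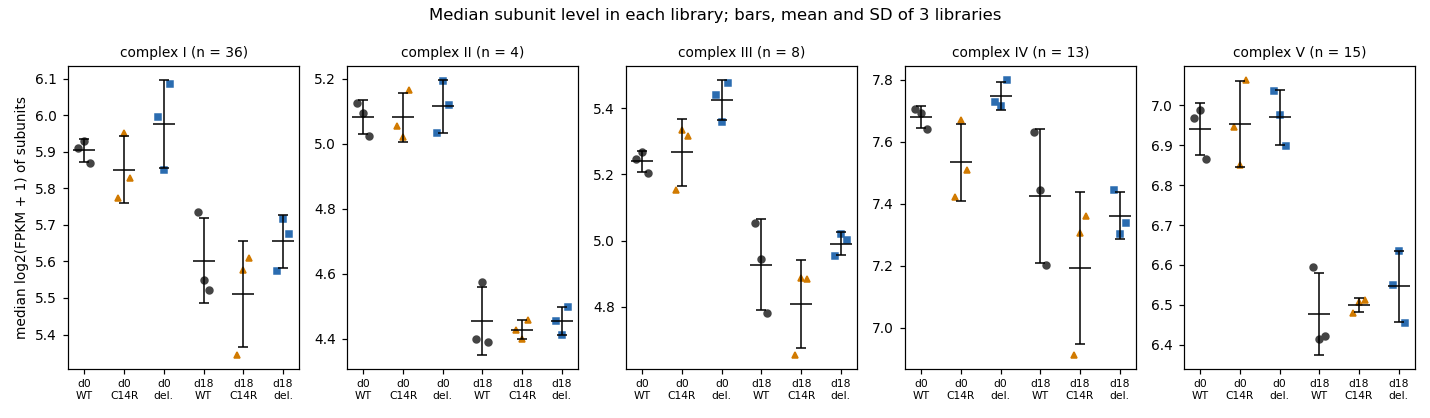
Median log2(FPKM + 1) over the subunits of each complex (y axis, own range in each panel, not starting at 0) in each library, by day and construct (x axis), with the mean and SD of 3 libraries as bars. In the panels of complexes I, II, III and V all day 18 libraries lie below all day 0 libraries, and in complex IV the days overlap.

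Complex I, the NADH dehydrogenase, has a core that carries the flavin and iron-sulfur clusters and a large shell of accessory subunits. Among its 36 members, 19 were lower and 2 higher in WT, 21 and 1 in C14R, and 21 and 0 in the deletion, with a median log2 change of -0.27 in WT. Over all genes tested, 34.0% were lower and 38.2% higher in WT, 35.0% and 37.9% in C14R, and 34.4% and 38.6% in the deletion. Of the 7 core subunits, 4 were lower and none higher in WT, among them NDUFV1, which binds NADH and the flavin, at -0.57 and NDUFS3 at -0.52. The largest core subunit, NDUFS1, gave -0.03, 0.04 and 0.08 in WT, C14R and the deletion and passed in none. NDUFS7 and NDUFS8, which hold the last clusters before ubiquinone, had wide standard errors (0.17 and 0.15). NDUFS7 was lower in C14R (-0.54) and the deletion (-0.67) and gave -0.29 in WT with an adjusted limma p of 0.141.

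Of the 29 accessory subunits, 15 were lower and 2 higher in WT. NDUFA11 (chr19:5891276-5904006), a membrane-arm subunit, had the largest fall of the complex. It was read at 50.8, 47.4 and 51.8 FPKM in the WT libraries of day 0, 46.4, 50.2 and 47.8 with C14R and 55.2, 49.9 and 47.7 with the deletion. At day 18 the values were 28.4, 27.6 and 24.3 (WT), 19.7, 26.0 and 26.6 (C14R) and 27.2, 28.0 and 33.0 (deletion) FPKM. Every day 18 library lay below every day 0 library, with a log2 change of -0.88 (SE 0.097) in WT, -0.98 in C14R and -0.78 in the deletion (adjusted limma p 2.88e-07, 7.2e-08 and 1.34e-06).

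NDUFS5 (chr1:39026318-39034636), despite its name an accessory subunit on the intermembrane side, was the most abundant member of the complex. Its day 0 values were 383, 400.4 and 364 FPKM (WT), 355, 376 and 379 (C14R) and 416, 398 and 423 (deletion). They were 251, 231 and 235 (WT), 232, 247 and 244 (C14R) and 238, 239.7 and 247 (deletion) FPKM at day 18, a tight group in every construct and at 62.5%, 65.0% and 58.5% of the day 0 means. The days did not overlap, and the adjusted limma p were 3.87e-10, 1.31e-09 and 6.49e-11. NDUFB11 (-0.67), NDUFB9 (-0.66), NDUFB7 (-0.53) and NDUFS6 (-0.53), also accessory subunits, fell in WT and in both variants.

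NDUFA12 and NDUFA5, accessory subunits of the peripheral arm, were the 2 complex I members higher in WT. NDUFA12, the larger rise, was read at 73.6, 67.1 and 71.6 FPKM in WT, 70.3, 67.0 and 75 in C14R and 76.1, 76.0 and 83.1 in the deletion at day 0, and at 95.1, 77.6 and 84.4 (WT), 84.1, 69.7 and 79.0 (C14R) and 86.5, 81.1 and 75.7 (deletion) at day 18. The days separated in WT and overlapped in both variants, and the log2 changes were 0.27 (SE 0.077) in WT, 0.13 in C14R and 0.05 in the deletion with adjusted limma p of 0.00473, 0.142 and 0.589. Whether the constructs differ in this was tested by the interaction with day, which gave -0.14 for C14R (adjusted p 0.931) and -0.22 for the deletion (adjusted p 0.699), so no difference was called.

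Complex II, succinate dehydrogenase, belongs both to the chain and to the citric acid cycle, and is built from the flavoprotein SDHA, the iron-sulfur subunit SDHB and the membrane anchors SDHC and SDHD. In each construct SDHA, SDHB and SDHD were lower at day 18, and SDHC was not called. SDHD (chr11:112086773-112120013) was read at 35.6, 35.0 and 35.9 FPKM in WT, 34.1, 32.9 and 40.2 in C14R and 31.9, 38.6 and 35.5 in the deletion at day 0. At day 18 it was at 21.0, 23.1 and 18.8 (WT), 18.6, 20.7 and 20.3 (C14R) and 19.8, 19.4 and 20.7 (deletion) FPKM. The 2 days were far from overlapping, and the log2 change was -0.74 (SE 0.08) in WT, -0.81 in C14R and -0.79 in the deletion (adjusted limma p 2.3e-07, 6.68e-08 and 9.57e-08). SDHA changed by -0.42 in WT, from 19.5 ± 0.725 to 14.4 ± 1.59 FPKM (SD, n = 3), and SDHB by -0.52, from 30.5 ± 2.5 to 21.0 ± 1.66.

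SDHC (chr1:161314257-161375340) was the most abundant complex II transcript. Its libraries gave 49.2, 46.9 and 47.4 FPKM (WT), 45.2, 48.4 and 47.3 (C14R) and 48.2, 48.2 and 48.6 (deletion) at day 0 and 48.3, 47.9 and 46.1 (WT), 48.9, 46.0 and 47.4 (C14R) and 46.7, 46.8 and 46.2 (deletion) at day 18. The log2 change was -0.01 (SE 0.036) in WT, 0.01 in C14R and -0.05 in the deletion, and none passed (adjusted limma p 0.748, 0.736 and 0.19). The days overlapped in WT and C14R, while the 3 deletion libraries of day 18 lay just below those of day 0. Within a library, the ratio of the partner transcripts to SDHC needs no scaling between libraries. The SDHD to SDHC ratio had a median of 0.746 over the 9 day 0 libraries (range 0.661 to 0.850) and 0.428 over the 9 of day 18 (0.381 to 0.483). For SDHB the medians were 0.658 and 0.460, and for SDHA 0.413 and 0.306. In all 3 ratios the 9 libraries of day 18 lay below the 9 of day 0. An exact two-sided permutation test of day within construct gave 0.00025 for each, the smallest p its 8000 relabelings can give (0.00031 after adjustment over 10 ratios). The ratios were picked with the values known. SDHC overlaps CFAP126 and SDHD overlaps TIMM8B on the opposite strand, and since the use of strand is not given in the sources used here, reads of such pairs cannot be told apart.

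Complex III, the cytochrome bc1 complex, had 8 members, of which 6 were lower and none higher in WT, 5 and 1 in C14R, and 6 and 1 in the deletion. Over all genes tested, 34.0% were lower and 38.2% higher in WT. UQCRH (chr1:46303631-46316776), the acidic hinge protein that helps cytochrome c bind, had the largest fall of all 81 members in each construct and was the most abundant of the complex. It was read at 481, 497 and 442 FPKM in WT, 464, 448 and 468 in C14R and 509, 504 and 459.6 in the deletion at day 0. At day 18 it gave 280.0, 234 and 224 (WT), 214, 224 and 239 (C14R) and 245, 260.1 and 251 (deletion) FPKM, which is 51.9%, 49.0% and 51.4% of the day 0 means. All 9 day 18 libraries lay well below all 9 of day 0, and the log2 change was -0.95 (SE 0.07) in WT, -1.03 in C14R and -0.96 in the deletion (adjusted limma p 1.66e-09, 5.82e-10 and 1.42e-09). It carries ETS letters 46 bases before its start, in the sequence shown above.

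UQCR11 (log2 change -0.63 in WT) and UQCRQ (-0.53), small subunits of the same complex, fell next to it, and the core proteins UQCRC1 (-0.32) and UQCRC2 (-0.13) and the Rieske iron-sulfur protein UQCRFS1 (-0.29) fell by less, UQCRC2 turning to 0.076, not called, after the small RNA genes were left out. UQCR11 was read at 37.6 ± 1.88 FPKM (SD, n = 3) at day 0 and 24.1 ± 3.55 at day 18 in WT, without overlap. UQCRB, a small matrix-side subunit, differed from these: it was read at 18.9, 19.4 and 18.6 FPKM (WT), 19.1, 18.6 and 19.2 (C14R) and 19.4, 19.3 and 18.5 (deletion) at day 0, and at 21.1, 20.5 and 19.2 (WT), 24.2, 21.5 and 22.6 (C14R) and 22.1, 22.8 and 21.4 (deletion) at day 18. It was higher in C14R (0.25) and the deletion (0.20) and gave 0.09 in WT with an adjusted limma p of 0.0851. The interactions with day were 0.16 for C14R and 0.11 for the deletion, with adjusted p of 0.848 and 0.799. Within libraries, UQCRH was 24.9 times UQCRB at day 0 (23.8 to 26.2) and 11.4 times at day 18 (8.84 to 13.3), on medians of FPKM, which is per length (exact permutation p 0.00025). The pair was picked with the values known, UQCRH having the largest fall of all members, so this p is no separate support.

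**Figure D3:**
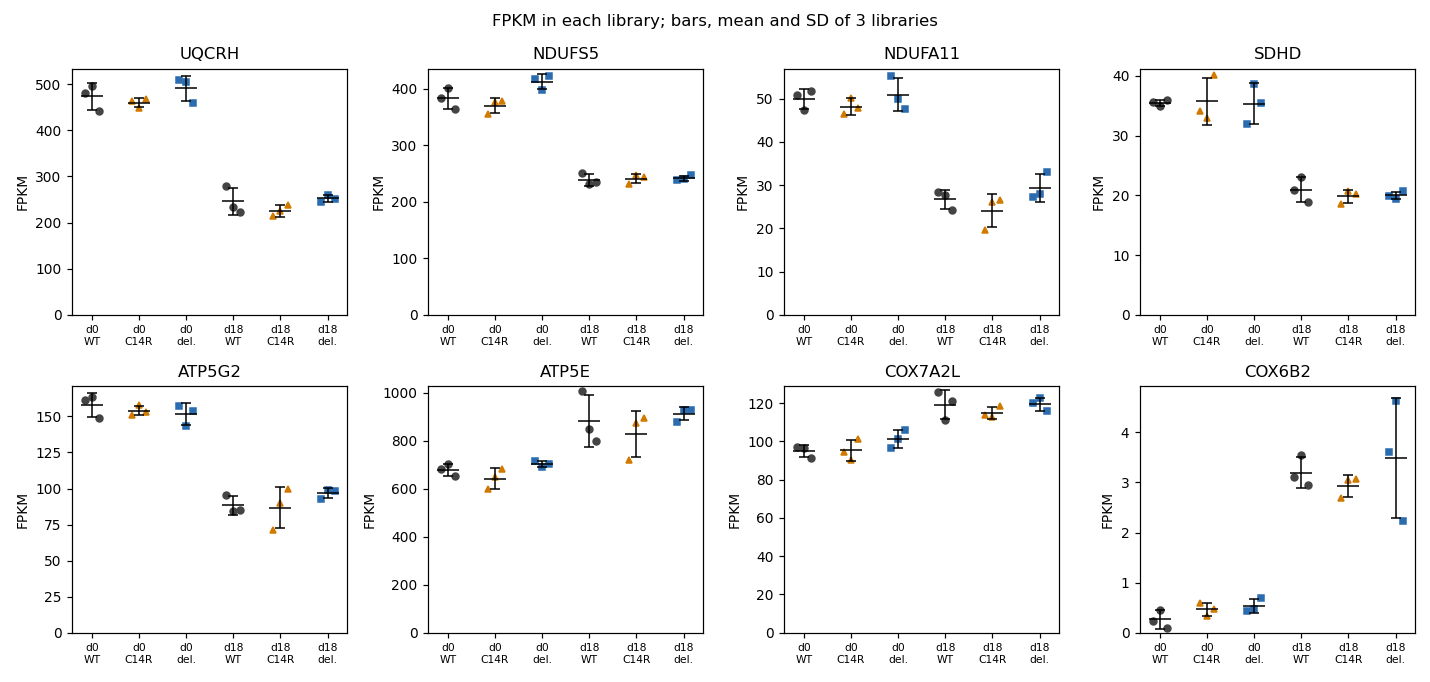
FPKM (y axis, from 0) of 8 members in each library by day and construct (x axis), with the mean and SD of 3 libraries as bars. UQCRH, NDUFS5, NDUFA11, SDHD and ATP5G2 are lower at day 18 in every library, and ATP5E, COX7A2L and COX6B2 are higher in every library.

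Complex IV, cytochrome c oxidase, had the widest mix. Of 13 members, 5 were lower and 2 higher in WT and 6 and 3 in each variant, where 34.0% of all genes tested were lower and 38.2% higher in WT. The median change of -0.02 in WT had no stable sign: it was 0.16 after quantile normalization, 0.18 after leaving out small RNA genes and 0.11 after removal of the length trend. Among its 11 general subunits, COX4I1, COX5A, COX5B, COX6B1 and NDUFA4 (named for complex I but a subunit of complex IV) were lower in all 3 constructs. The most abundant, COX7C, was read at 706, 677 and 691 FPKM in WT, 671, 619.8 and 651 in C14R and 669.7, 708 and 731 in the deletion at day 0, and at 715, 676 and 649 (WT), 709, 572 and 625 (C14R) and 624, 683 and 690.5 (deletion) at day 18. Its days overlapped in each construct. COX7A2, COX7B and COX6A1 were likewise not called in any construct. COX6C was higher in C14R (0.21) and the deletion (0.12) and gave 0.06 in WT.

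Several complex IV subunits come as tissue isoforms, and these were compared with their general partners. COX4I1, which starts the assembly of the enzyme and is the complex IV member with the largest fall in WT, was read at 260.5, 256 and 256 FPKM in WT at day 0 and 201, 173 and 172 at day 18, with 247, 258 and 259.9 then 159, 199 and 190.3 in C14R and 259, 284 and 257 then 193, 200.1 and 189 in the deletion. The days did not overlap, and the change was -0.50 (SE 0.071) in WT, -0.48 in C14R and -0.46 in the deletion (adjusted limma p 5.94e-06, 9.3e-06 and 1.72e-05). Its isoform COX4I2, known from lung and low-oxygen conditions, lay under the expression limit: 1.16, 1.91 and 0.780 FPKM in WT, 2.83, 2.07 and 1.98 in C14R and 1.06, 1.20 and 2.55 in the deletion at day 0, and 0.250, 0 and 0.127 (WT), 0.268, 0.377 and 0.517 (C14R) and 0.250, 0 and 0.151 (deletion) at day 18. Its share of the summed COX4 transcripts was 0.739% at day 0 and 0.124% at day 18 (medians of 9 libraries, no overlap, exact permutation p 0.00025).

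COX6B2 (chr19:55349306-55354814), the testis-type isoform of COX6B, passed the expression limit only through day 18, so its difference between days is given as a description. It was read at 0.241, 0.460 and 0.0894 FPKM in WT, 0.593, 0.323 and 0.483 in C14R and 0.440, 0.464 and 0.695 in the deletion at day 0, and at 3.10, 3.55 and 2.94 (WT), 2.68, 3.06 and 3.07 (C14R) and 3.61, 4.62 and 2.23 (deletion) at day 18. The groups did not overlap, with a log2 difference of 1.74 (SE 0.16) in WT, 1.43 in C14R and 1.52 in the deletion, which the pseudocount of 1 makes smaller than the ratio of the means. COX6B1, the general form, was read at 302, 312 and 289 FPKM in WT at day 0, and day 18 gave 262, 225 and 227. COX6B2 made up 0.141% of the summed COX6B transcripts at day 0 and 1.30% at day 18 (medians of 9 libraries). COX7A2L, the paralog of COX7A2 that links complexes III and IV into supercomplexes, was at 96.9, 96.3 and 91.4 FPKM in WT, 94.3, 90.5 and 101 in C14R and 96.5, 101 and 106 in the deletion at day 0, and at 126, 111 and 121 (WT), 114, 113 and 118 (C14R) and 120.0, 123 and 116 (deletion) at day 18. It was higher in every construct (0.33, 0.27 and 0.24, adjusted limma p 1.98e-05, 0.000148 and 0.000464). Its ratio to COX7A2 had a median of 0.366 at day 0 and 0.440 at day 18, with ranges that overlapped slightly over the 3 constructs together (highest 0.394 at day 0, lowest 0.392 at day 18, exact permutation p 0.00025). COX7A2 itself was read at 265, 281 and 250.5 FPKM in WT at day 0, and day 18 gave 307, 279 and 264. The muscle isoforms COX6A2 and COX7A1 and the isoforms COX8C and COX7B2 were at most 1.07 FPKM in any library, COX7B2 being listed at 0 in all. NDUFA4L2, the hypoxia-linked paralog of NDUFA4, was at most 0.670 FPKM.

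Complex V, the ATP synthase, joins the catalytic F1 head to the proton-conducting Fo part. Of 15 members, 11 were lower and 2 higher in each construct, where 34.0% of all genes tested were lower and 38.2% higher in WT. Of the 5 F1 subunits, the catalytic and structural pair ATP5B (-0.48) and ATP5A1 (-0.30) and the central stalk ATP5C1 (-0.30) were lower in WT and both variants, while ATP5D (-0.33, SE 0.17) was not called. ATP5E (chr20:59025467-59032382), the epsilon subunit of the central stalk and the most abundant of all 81 members, rose. It was read at 683, 701 and 651 FPKM in WT, 597, 647 and 682 in C14R and 715, 689.6 and 702 in the deletion at day 0, and at 1005, 848 and 798 (WT), 719, 874 and 893 (C14R) and 879.8, 928 and 927 (deletion) at day 18. Each construct separated by day, and the change was 0.37 (SE 0.083) in WT, 0.36 in C14R and 0.38 in the deletion (adjusted limma p 0.000621, 0.000803 and 0.000594). It overlaps TUBB1 on the opposite strand, and the use of strand is not given in the sources used here.

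Of the 10 Fo and stalk subunits, 8 were lower and 1 higher in every construct. The b subunit ATP5F1 (-0.63 in WT), ATP5J (-0.52) and ATP5J2 (-0.49) followed ATP5G2, and the d subunit ATP5H rose (0.30, 0.36 and 0.18). The c ring, which turns as protons pass, is encoded by 3 genes whose mature proteins are identical. ATP5G2, the most abundant, was read at 161, 164 and 149 FPKM in WT, 151, 158 and 153 in C14R and 157, 143 and 154 in the deletion at day 0, and at 95.7, 84.2 and 84.8 (WT), 70.9, 90.2 and 99.4 (C14R) and 92.7, 99.1 and 98.1 (deletion) at day 18. It fell without overlap in each construct (-0.83, -0.83 and -0.64, adjusted limma p 1.42e-07, 1.44e-07 and 3.41e-06). ATP5G1 (-0.36 in WT) and ATP5G3 (-0.17) fell by less, ATP5G3 turning to 0.032, not called, after the small RNA genes were left out. The share of ATP5G2 among the 3 went from a median of 58.3% to 51.9% (exact permutation p 0.0005). The days overlapped, with 53.7% the lowest at day 0 and 55.9% the highest at day 18. That of ATP5G3 went from 10.3% to 12.8% without overlap (exact permutation p 0.00025), and that of ATP5G1 from 31.6% to 34.6% with overlap (0.025).

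**Figure D4:**
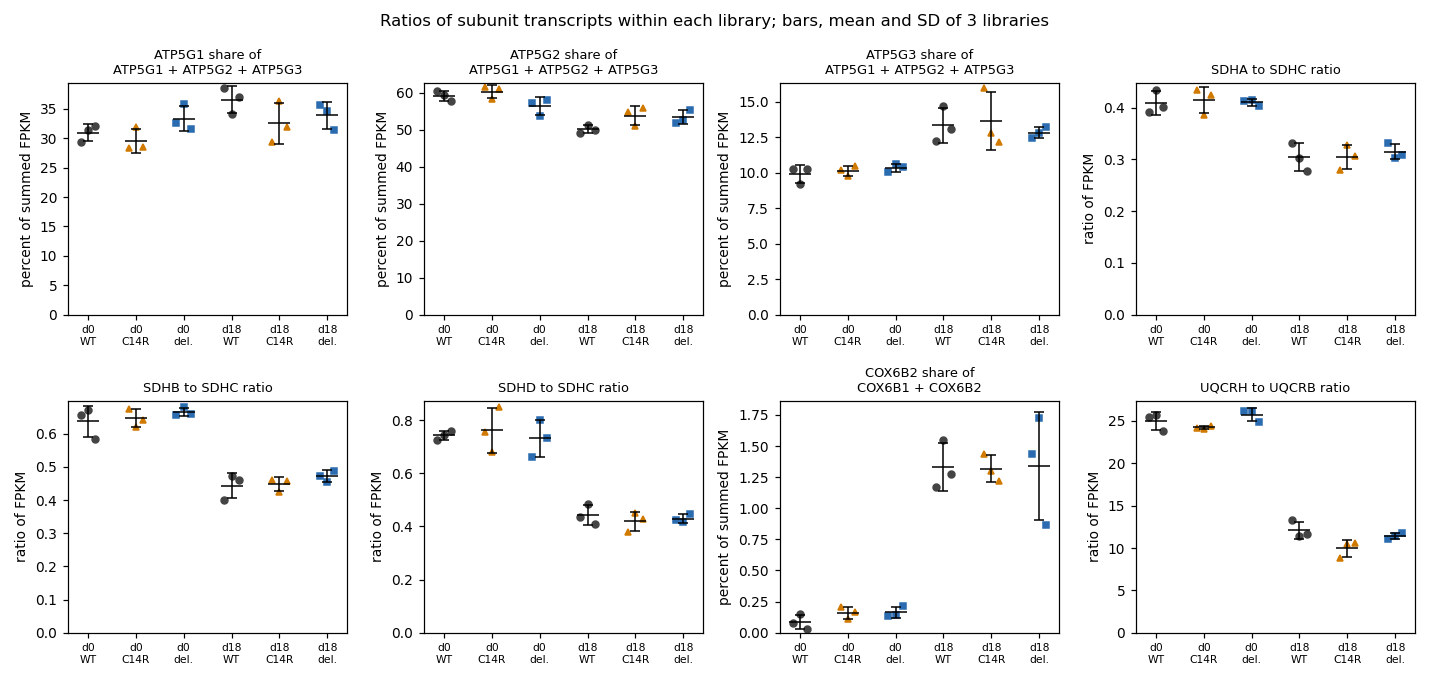
Ratios or shares of FPKM between partner subunits within each library (y axes, from 0, as ratio or percent) by day and construct (x axis), with the mean and SD of 3 libraries as bars. The SDHA, SDHB and SDHD ratios to SDHC and the UQCRH to UQCRB ratio are lower in all day 18 libraries, and the COX6B2 and ATP5G3 shares are higher in all of them.

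How far the members fell depended on how the libraries were scaled against each other. When 2410 small RNA genes were left out and the libraries rescaled, the median of all genes in WT moved from 0.03 to 0.21 and that of the members from -0.29 to -0.08. In that scaling 23 members were higher and 28 lower in WT, where 51.1% of all genes tested were higher and 23.5% lower. Of all calls 68.5% were higher, against 52.9% as deposited. Relative to all genes the members stayed below: their median minus that of all genes was -0.31 as deposited, -0.32 after median-of-ratios scaling, -0.29 after rescaling, -0.18 after quantile normalization and -0.16 after removal of each library's trend with transcript length. Respectively 67, 66, 64, 60 and 53 of the 81 members lay below the median of all genes. The members are short transcripts, with a median length of 761 nucleotides against 2494 for tested genes with a length.

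Calls that held as deposited and under all 4 of these scalings numbered 27 lower and 5 higher in WT, 34 and 8 in C14R, and 31 and 5 in the deletion. The shares of all genes tested whose calls held in this way were not counted, so these counts have no background. A group of 23 members was lower in all 3 constructs as deposited and under all 4 scalings, again without a count over all genes. It holds SDHA, SDHB and SDHD of complex II, UQCRH, UQCR11 and UQCRQ of complex III, COX4I1 and NDUFA4 of complex IV, ATP5A1, ATP5B, ATP5F1, ATP5G2 and ATP5J of complex V, and 10 complex I subunits (NDUFA9, NDUFA11, NDUFB5, NDUFB8, NDUFB9, NDUFB11, NDUFS3, NDUFS5, NDUFS6 and NDUFV1). ATP5E and COX7A2L were higher in the same way, as was COX6B2, whose direction the expression limit favours. SDHC was the member called in both directions in 1 construct: in the deletion it was lower after median-of-ratios scaling (-0.11) and higher after rescaling (0.16) and after removal of the length trend (0.21).

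**Figure D5:**
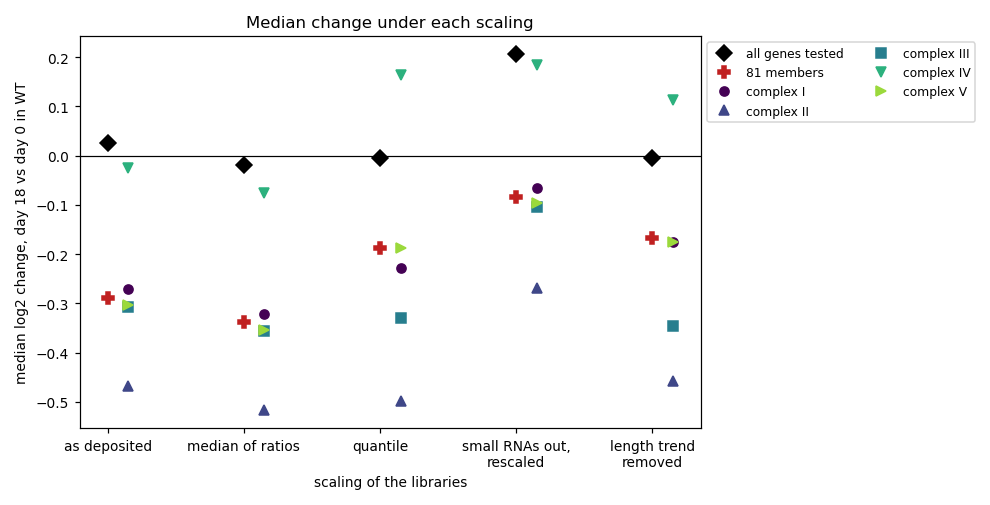
Median log2 change from day 0 to day 18 in WT (y axis) of all genes tested, of the 81 members and of the subunits of each complex, under the deposited values and 4 other scalings (x axis). The members lie below all genes under each, complex II is the lowest, and complex IV changes sign.

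Genes that build and supply the complexes were counted from lists of assembly factors, regulators, citric acid cycle enzymes and carriers. In WT at day 18, 9 of 18 complex I assembly factors were lower and 1 higher, 1 of 4 for complex II was lower and 1 higher, 3 of 6 for complex III were lower and 1 higher, 12 of 23 for complex IV were lower and 3 higher, and 1 of 5 for complex V was lower and 0 higher. The shares over all genes tested are those of the members' comparison (34.0% lower and 38.2% higher in WT). C14R gave 11 lower and 0 higher for complex I and 13 and 3 for complex IV, and the deletion gave 9 and 0 and 14 and 2. The lists' median log2 changes in WT were -0.22 for complex I and -0.23 for complex IV, against 0.03 over all genes. Each was -0.03 after the small RNA genes were left out, against 0.21 over all genes. C17orf89, the complex I factor now called NDUFAF8, fell by 1.52 on the log2 scale, from 61.7 ± 2.73 to 20.9 ± 1.76 FPKM (SD, n = 3), and COA4, a complex IV factor, by 0.89. SDHAF4, which helps SDHA join SDHB, rose by 1.03, from 17.5 ± 4.08 to 36.5 ± 6.16 FPKM, and TTC19, a complex III factor, by 0.38. After the small RNA genes were left out, 5 complex I factors were lower and 3 higher, 5 complex IV factors lower and 7 higher, and 2 complex III factors higher and 0 lower, while the 4 named genes kept their direction. In that scaling 23.5% of all genes tested were lower and 51.1% higher in WT.

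Among 12 measured regulators of mitochondrial biogenesis, 8 were lower and 1 higher in WT, where 34.0% of all genes tested were lower and 38.2% higher. The coactivator PPRC1 fell most, from 13.3 ± 0.492 to 4.92 ± 0.287 FPKM (log2 change -1.27, SE 0.0598), followed by the nuclear receptor ESRRA (-0.91) and by TFB2M (-0.85) and TFAM (-0.65), which transcribe and package mitochondrial DNA. ESRRG rose by 0.25. NRF1 gave -0.22 with an adjusted limma p of 0.0651, GABPA -0.26 and YY1 -0.24, the last 2 called lower in WT. Neither of these 2 was called after the small RNA genes were left out (-0.07 and -0.04, against a median of 0.21 over all genes). PPARGC1A, PPARGC1B and ESRRB lay under the expression limit. The regulators gave 7 lower and 1 higher in C14R (35.0% and 37.9% of all genes) and 8 and 2 in the deletion (34.4% and 38.6%). Of 13 citric acid cycle genes 7 were lower and 3 higher in WT, and of 8 carriers and porins 5 were lower and 1 higher. After the small RNA genes were left out the citric acid cycle genes gave 5 lower and 4 higher, the carriers and porins 4 and 4 and the regulators 5 and 3. In that scaling 23.5% of all genes tested were lower and 51.1% higher in WT. PPRC1, ESRRA, TFB2M and TFAM were lower under all 4 scalings.

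The variants were then compared with WT on the same day. No member passed an adjusted p of 0.05 (limma, Benjamini-Hochberg) in C14R at day 0, the deletion at day 0, C14R at day 18 or the deletion at day 18, where 0.0%, 0.029%, 0.0363% and 0.0725% of all genes did. None passed in the interaction of C14R or of the deletion with day either, against 0.0% and 0.0145% of all genes. None passed under any other setting tried. At an unadjusted p under 0.05 there were 4, 9, 18 and 5 members in the 4 comparisons, against 2.81%, 6.22%, 11.1% and 11.4% of all genes, and 5 and 4 in the 2 interactions, against 5.73% and 7.36%.

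C14R at day 18 had 16 such members lower and 2 higher (5.77% and 5.36% of all genes), and 55 of 81 members lay below 0 with a median of -0.08 (all genes -0.00, with 50.8% of them below 0). Without replicate 1 of C14R at day 18 there were 10 (12.4% of all genes), with 47 members below 0 and a median of -0.02. Without replicate 1 of WT at day 18 there were 7 (8.94% of all genes) with a median of -0.02. Some fits gave more: 26 (12.6%) without replicate 3 of C14R at day 18, 22 (11.7%) without replicate 3 of WT at day 18 and 23 (11.2%) after quantile normalization. Fitted on only the libraries compared, C14R at day 18 gave 7 such members (5.29% of all genes) and the deletion at day 0 gave 23 (11.8%). The smallest p was that of NDUFB4, an accessory membrane-arm subunit of complex I. At day 18 it was read at 140.4, 132 and 120.3 FPKM in WT and 108, 112 and 122 with C14R, and the groups overlapped at 1 library (log2 difference -0.20, SE 0.056, adjusted limma p 0.172). For C14R at day 0 it was COX6C, at 109, 109 and 109 FPKM in WT and 92.4, 92.9 and 100.3 with C14R, all lower (-0.20, adjusted p 1).

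With the deletion at day 0, 68 of 81 members lay above WT (49.5% of all genes did), with a median of 0.05 against -0.00 over all genes. In 22 members the 3 deletion libraries were all above the 3 WT libraries, and in 1 all below, against 8.68% and 9.28% of all genes. After the small RNA genes were left out 59 members lay above WT with a median of 0.03. The median over all genes was then -0.02, with 59.2% of them below 0. NDUFA2, an accessory complex I subunit, had the smallest p: it was read at 48.5, 47.9 and 43.3 FPKM in WT and 59.6, 53.0 and 55.5 with the deletion, without overlap (0.26, SE 0.078, adjusted p 0.759). NDUFA2 also led the interaction of C14R with day (-0.39, adjusted p 0.651), where it was read at 48.9, 51.6 and 53.7 FPKM with C14R at day 0 but 29.9, 37.5 and 33.5 at day 18, and at 43.2, 41.6 and 35.6 at day 18 in WT. At day 18 the deletion gave a median of 0.00 with 43 of 81 members above WT (51.8% of all genes), and 0.05 with 63 above without replicate 1 of WT at day 18. COX7B, which had the smallest p there, was at 345, 341 and 347 FPKM in WT and 309, 328 and 322 with the deletion (-0.11, adjusted p 0.31).

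The 5 members that encode no subunit behaved differently from each other. ATP5S had the smallest p in the interaction of the deletion with day (0.45, adjusted limma p 0.461). It was read at 5.13, 5.83 and 4.74 FPKM in WT and 4.78, 3.76 and 3.82 with the deletion at day 0, and at 3.41, 3.24 and 3.79 (WT) and 3.93, 4.16 and 3.94 (deletion) at day 18. It fell with differentiation in WT (-0.48) and C14R (-0.44), while ATP5SL and NDUFB2-AS1 were not called in any construct. UQCRHL, nearly identical to UQCRH and read at 1.69 FPKM on average, was called higher in C14R (0.78), and UQCRBP1 in the deletion (0.51). Reads of such copies can be split between gene and copy in ways the values do not show, so both calls are uncertain. The same limit touches the subunits: 44 of 81 members have at least 1 annotated pseudogene named after them, 158 in all, and 42 overlap an annotated gene on the opposite strand.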

How the data were processed

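RNA of 18 SH-SY5Y libraries, 3 in each of 6 construct-by-day groups, was sequenced after ribosomal RNA removal. The authors deposited gene-level FPKM values; the submitters' processing notes name TopHat2, STAR, Cufflinks 2.2.1 and hg38, with no role or order, and the strand setting and annotation are not given in the sources used here. Groups were taken from the sample labels. FPKM hold no counts, so log2(FPKM + 1) was tested with limma 3.58.1 (R 4.3.3), with a mean-variance trend, 6 group means over all 18 libraries and Benjamini-Hochberg adjustment over the 13785 genes with a mean of at least 1 FPKM, at a threshold of 0.05. The pseudocount shrinks the fold changes of low genes. The fit was tested on simulated data. Comparisons were day 18 minus day 0 in each construct, each variant minus WT on each day, and the interactions of variant and day. Ratios between partner subunits were tested by an exact two-sided permutation of day within construct (8000 relabelings), adjusted over 10 ratios. All ratios were picked with the values known. Transcript lengths, positions and overlaps come from GENCODE 29 (GRCh38), to which 24495 of 26372 symbols matched, and promoters from RefSeq.

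The members and lists were chosen with earlier results of these data known. Values in every library are given for ZNHIT3, for the most abundant member and the largest rise and fall in WT of each complex, for the member with the smallest p in each variant comparison and for complex IV isoforms with partners. Other members are named by complex and role. Alternatives were a pseudocount of 0.1, no filter or a mean of at least 5 FPKM, median-of-ratios factors, quantile normalization, 2410 small RNA genes left out with the rest rescaled, a fit without the variance trend, blocking on the replicate number, array weights, only the libraries compared, each library's trend with transcript length removed, and each library left out. Subunits encoded in mitochondrial DNA were not analysed here. The values of 1 member, which stays in all counts, are not reported here.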

Additional observations from a re-analysis of the deposited data

How the results depend on the processing

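The counts of members lower at day 18 (45, 47 and 47 in WT, C14R and the deletion) stayed within 1.5 times of themselves under every alternative run except rescaling without small RNA genes, which gave 28 in WT. The counts of higher members (6, 8 and 7) moved more: 13, 13 and 12 after quantile normalization, 23, 20 and 22 after that rescaling, and 18, 16 and 14 after removal of the length trend, with or without the replicate block. Of all genes tested, 38.2%, 37.9% and 38.6% were higher as deposited and 51.1%, 49.2% and 52.1% after that rescaling. The shares were 36.2%, 35.8% and 36.3% after quantile normalization and 36.6% in each construct after removal of the length trend without the block. Median changes in WT after rescaling were -0.066 (complex I), -0.27 (II), -0.10 (III), 0.18 (IV) and -0.10 (V), against 0.21 over all genes. Complex IV reversed to 0.16 after quantile normalization and 0.11 after removal of the length trend, where complex V gave -0.17, with or without the block. Rescaling reversed 4 called members in WT: ATP5G3 to 0.032, ATP5L to 0.019, NDUFB4 to 0.032 and UQCRC2 to 0.076. With each library left out, lower counts ranged from 41 to 50, 44 to 49 and 44 to 51 in WT, C14R and the deletion, and higher counts from 5 to 8, 8 to 10 and 5 to 8. The medians ranged from -0.29 to -0.24 (I), -0.51 to -0.43 (II), -0.35 to -0.27 (III), -0.061 to 0.0090 (IV, above 0 without replicate 3 of WT at day 18) and -0.37 to -0.24 (V). With the replicate block 6 members were higher and 46 lower in WT, 8 and 49 in C14R and 6 and 47 in the deletion. Libraries with the same number correlated at -0.363 to 0.168 in their deviations, which cannot show whether they share a batch. At day 0 SNORD3A took 58.56%, 52.87% and 51.45% of the summed FPKM in replicate 1 of WT, C14R and the deletion. It took 7.69%, 7.55% and 6.88% in replicate 2 and 8.63%, 57.35% and 18.56% in replicate 3. A shared batch was not tested. The variant comparisons gave 0 adjusted calls under every alternative run. Depth is unknown, and 3 libraries a group limit the precision. The cause of these shifts was not tested.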

Other observations

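The carriers that supply the ATP synthase were described by list in the text, and their isoforms moved in opposite directions with differentiation. SLC25A5 and SLC25A6, the adenine nucleotide translocases that exchange ADP for ATP in dividing and in most other cells, went from 124 ± 4.83 to 71.6 ± 1.16 FPKM and from 269 ± 5.05 to 135 ± 16.1 FPKM in WT (SD, n = 3). SLC25A4, the translocase of heart, muscle and brain, went from 8.29 ± 0.792 to 13.6 ± 0.726 FPKM. The log2 changes in WT were -0.78, -1.0 and 0.66, and those in C14R (-0.76, -0.99 and 0.59) and in the deletion (-0.77, -0.92 and 0.69) had the same signs, all past an adjusted limma p of 0.05. Under the other scalings the WT changes ranged from -0.83 to -0.57, from -1.05 to -0.79 and from 0.58 to 0.85. The phosphate carrier SLC25A3 (-0.68) and the porin VDAC1 (-0.70) were lower. VDAC3 and cytochrome c (CYCS) gave 0.04 each and were not called, but after the small RNA genes were left out both were called higher (0.25 and 0.24). The median of all genes was 0.21 in that scaling, and 51.1% of them were called higher.

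In the citric acid cycle, succinyl-CoA ligase has 2 alternative beta subunits. SUCLG2, the GTP-forming one, went from 17.4 ± 1.78 to 7.0 ± 0.663 FPKM in WT (log2 change -1.20), and SUCLA2, the ATP-forming one, from 22.4 ± 0.815 to 27.6 ± 1.21 FPKM (0.29). The shared alpha subunit SUCLG1 gave 0.05 with an adjusted limma p of 0.563, and 0.25 (0.00678) after the small RNA genes were left out. The median of all genes was 0.21 in that scaling. In C14R and the deletion SUCLG2 gave -1.13 and -1.17 and SUCLA2 gave 0.29 and 0.23, each called. These genes were named after their values were seen, apart from the largest rise and fall of each list.

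Subunits that the symbol rule does not reach were also read. NDUFAB1, the acyl carrier protein of complex I, went from 102 ± 4.84 to 60.1 ± 8.45 FPKM in WT, USMG5 of complex V from 663 ± 5.36 to 661 ± 37.5, and C14orf2 of complex V from 111 ± 6.78 to 90.2 ± 8.63.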
